A study of Mus musculus with 2 samples.

Results

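The 8 genes Mpo, Elane, Prtn3, Ctsg, Ms4a3, Nkg7, Prss57 and Trem3 were examined as the primary granule genes of myeloid progenitors in sorted mouse bone marrow cells. They were taken by symbol from the gene table of the series, and all 8 were found among its 31053 genes. Single-cell RNA-seq with the 10x Genomics 3′ v2 kit had been carried out on LSKCD150+ cells, which lack lineage markers and are positive for Sca-1, Kit and CD150, a receptor of the SLAM family. One library was labelled RUNX1 WT and the other RUNX1 KO, both from the Runx1F/F Mx1-Cre model, in which loxP sites flank part of Runx1 and an interferon-responsive promoter drives the Cre recombinase. The labels do not say whether the RUNX1 WT animals carried Cre or the floxed allele, and the induction scheme and the number, age and sex of the animals are not given in the sources used here. The Mx1 promoter is not restricted to blood cells, so the model does not confine the deletion to the sorted population. Each genotype has 1 library, so the differences given here have no replicate check and were not tested. Every interval is an exact 95% interval that covers counting error only.

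Primary, or azurophil, granules are the first granules that neutrophil precursors make, at the promyelocyte stage, before the specific and gelatinase granules. Their cargo is a peroxidase and a family of serine proteases that are made as inactive precursors, trimmed by cathepsin C and packed on the proteoglycan serglycin. Mpo encodes myeloperoxidase, a haem enzyme that makes hypochlorous acid from hydrogen peroxide. Elane (neutrophil elastase), Prtn3 (proteinase 3), Ctsg (cathepsin G) and Prss57 (a serine protease of neutrophil granules) encode the proteases. The other 3 members are not such cargo. Ms4a3 encodes a membrane protein of granulocyte-monocyte progenitors, Nkg7 a granule membrane protein best known from cytotoxic lymphocytes, and Trem3 a myeloid receptor that signals through DAP12.

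Of the 8 genes, 3 lie close together on chromosome 10 of GRCm38, by the GENCODE M21 annotation. Prtn3 (ENSMUSG00000057729) occupies positions 79874476 to 79883174 on the plus strand, and Elane (ENSMUSG00000020125) follows it from 79886247 to 79888215, 3073 bases on. Prss57 (ENSMUSG00000020323), on the minus strand from 79781474 to 79790961, begins the 107 kb that end with Elane. Cfd, the complement factor D gene, starts 2638 bases after Elane and had 7 UMIs in the WT library and 4 in the KO-labelled library. Mpo (ENSMUSG00000009350) lies on chromosome 11 from 87793581 to 87804413, and Nkg7 (ENSMUSG00000004612) on chromosome 7 from 43437073 to 43438249, both on the plus strand. Trem3 (ENSMUSG00000041754) lies on the plus strand of chromosome 17 from 48247777 to 48258841. Ctsg (ENSMUSG00000040314) lies on the minus strand of chromosome 14 from 56099881 to 56102574, and Ms4a3 (ENSMUSG00000024681) on that of chromosome 19 from 11629496 to 11640851. An opposite-strand gene overlaps 3 of the members, namely Plppr3 with Prtn3 over 159 bases, Fstl3 with Prss57 over 1157 bases and Gm11505 with Mpo over 5361 bases. The labels do not state whether the counting used strand, and the partners stood at most at 17.1 CPM (Plppr3, KO-labelled library), far under Prtn3 and Mpo.

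The promoters of the pair that sit side by side, Prtn3 and Elane, are shown with those of Mpo, the third abundant cargo gene, and Nkg7, the member whose pattern over clusters was least like the others'. The sequences are the 250 bases before the annotated start, 5′ to 3′ on the gene's strand, from RefSeq on GRCm38.p6, where 6 of the 8 members had an entry. The windows are chr10:79879417-79879666 for Prtn3, chr10:79886062-79886311 for Elane, chr11:87793534-87793783 for Mpo and chr7:43436888-43437137 for Nkg7, all on the plus strand. The RefSeq start of Prtn3 lies inside the longer GENCODE gene. Capitals mark matches to 4 motifs. They are GAGGAAGT, a motif of the myeloid factor PU.1, then CAACGG, a motif of the progenitor factor MYB, then TATAA, the core of a TATA box, and lastly TGTGGT, a motif of the RUNX factors. The RUNX match in Nkg7 lies on the other strand and so reads ACCACA.
Prtn3: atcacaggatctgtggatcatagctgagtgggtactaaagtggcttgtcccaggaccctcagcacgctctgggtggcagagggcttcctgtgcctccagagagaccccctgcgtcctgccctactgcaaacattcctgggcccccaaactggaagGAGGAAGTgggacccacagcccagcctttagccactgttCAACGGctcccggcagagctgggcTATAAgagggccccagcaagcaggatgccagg
Elane: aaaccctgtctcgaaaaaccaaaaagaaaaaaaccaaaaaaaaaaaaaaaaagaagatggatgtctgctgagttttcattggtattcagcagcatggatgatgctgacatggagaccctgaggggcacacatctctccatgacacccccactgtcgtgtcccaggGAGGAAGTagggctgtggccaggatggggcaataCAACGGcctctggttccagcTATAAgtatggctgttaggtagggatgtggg
Mpo: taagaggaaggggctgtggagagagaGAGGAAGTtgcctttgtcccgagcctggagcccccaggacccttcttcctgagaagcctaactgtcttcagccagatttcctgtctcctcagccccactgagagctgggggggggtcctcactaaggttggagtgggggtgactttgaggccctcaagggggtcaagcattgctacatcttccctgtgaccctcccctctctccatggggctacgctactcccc
Nkg7: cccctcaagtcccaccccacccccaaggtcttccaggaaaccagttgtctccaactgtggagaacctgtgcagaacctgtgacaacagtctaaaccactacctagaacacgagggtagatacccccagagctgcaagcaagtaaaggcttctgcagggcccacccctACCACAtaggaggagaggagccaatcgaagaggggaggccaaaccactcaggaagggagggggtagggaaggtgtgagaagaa
In Prtn3 and Elane the same 3 motifs stood in the same order at nearly the same distances, the PU.1 motif at 95 and 85 bases before the start, the MYB motif at 56 and 51, and the TATA box at 32 and 31. Mpo held the PU.1 motif at 224 bases before the start and neither of the other 2 in this window. The RUNX motif was found on the other strand of Nkg7, 83 bases before the start, and of Ctsg, 79 bases before it. TGCGGT, another RUNX motif, was in none of the 6 windows, and TTNNGNAA, a C/EBP motif, was in that of Ms4a3. Both strands were searched and no 2 of the matches overlapped. Among 32851 promoter windows of the same length, 2.44% held the PU.1 motif, 4.05% the MYB motif, 22.8% the TATA box, 14.0% the RUNX motif TGTGGT, 5.10% the RUNX motif TGCGGT and 36.8% the C/EBP motif. The motifs were chosen with these sequences in view, and a match describes the letters and not a bound site.

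The WT library held 9969 barcodes and 113732196 UMIs, of which 9472 cells were kept, and the KO-labelled library 11398 barcodes and 120578398 UMIs, of which 10769 were kept. Median depth was 9884 and 9310 UMIs per cell. Runx1, the targeted gene, was higher in the KO-labelled library, at 196 against 104 CPM (ratio 1.89, interval 1.85 to 1.93). The counts are 3′ tags and the deleted part is not named in the labels, so tags outside it check nothing, and directions below are those of the library labelled KO. The sexes differed too, with 6690 cells (70.6%) of the WT library male by their transcripts and 8927 cells (82.9%) of the KO-labelled library female. The libraries shared 33 kept barcodes, and doublets were not removed. The part that sex or doublets play in the results below was not tested. Values in male cells were taken only for the library-wide ratios of the members, their counts and their median. They are given where they moved a result by over 1.5 times or ended a call. The results by cluster, share of cells, Procr and Pf4 were not repeated in male cells.

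The 8 genes together made up 0.197% of all UMIs in the WT library and 0.220% in the KO-labelled library. Levels here are UMIs of a gene scaled to the UMIs of the library (counts per 1e6, CPM), and since a 3′ tag stands for 1 molecule whatever the transcript's length, they can be compared between genes. Prtn3 was the most abundant member in both libraries. It had 578 CPM (573 to 582) among WT cells and 666 CPM (661 to 670) among KO-labelled cells. Mpo stood at 346 CPM (342 to 349) and 456 CPM (452 to 460). Elane stood at 347 CPM (344 to 351) and 418 CPM (414 to 422), so Mpo and Elane could not be ordered in the WT library. Ctsg stood at 323 CPM (319 to 326) and 441 CPM (437 to 445). These 4 cargo genes were all somewhat higher in the KO-labelled library, with ratios of 1.15 for Prtn3, 1.2 for Elane, 1.32 for Mpo and 1.37 for Ctsg. Prss57, the fifth cargo gene, was scarce and lower there, at 16.4 CPM (15.6 to 17.1) against 11.8 CPM (11.2 to 12.5), a ratio of 0.724 (0.675 to 0.776).

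The members that are not cargo differed more between the libraries. Nkg7 had 275 CPM (272 to 278) among WT cells. Among KO-labelled cells it had 141 CPM (139 to 143) and was 1.94-fold lower. Ms4a3 stood at 84.7 CPM (83.0 to 86.4) and 56.5 CPM (55.1 to 57.8), a ratio of 0.667 (0.646 to 0.688) that lay just short of 1.5-fold. Trem3, the scarcest member, stood at 4.95 CPM (4.55 to 5.38) and 8.03 CPM (7.53 to 8.56), a ratio of 1.62 (1.46 to 1.80). In all, 5 members were higher and 3 lower in the KO-labelled library. Trem3 alone passed 1.5-fold in the higher direction, and Nkg7 alone in the lower. Of the 5904 genes that reached 20 CPM in a library, 2.25% passed 1.5-fold in the higher direction and 2.03% in the lower. Trem3 lies under that floor, and with a floor of 5 CPM the shares were 2.96% and 3.85%. The median log2 ratio over the members was 0.24 (log2 scale), beside -0.07 over all 5904 genes, of which 34.9% were higher. The direction of the members' median was not kept without the 5% of cells with most UMIs (-0.065), with equal weights for clusters (-0.10), in the GMP-like cells described below (-0.071) or outside the myeloid-named clusters (-0.16). In male cells alone, 6690 of the WT and 973 of the KO-labelled library, 4 members were at least 1.5-fold higher, Elane (1.98), Trem3 (1.70), Ctsg (1.66) and Mpo (1.58), and Nkg7 had a ratio of 0.641 and Ms4a3 one of 0.985.

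**Figure D1:**
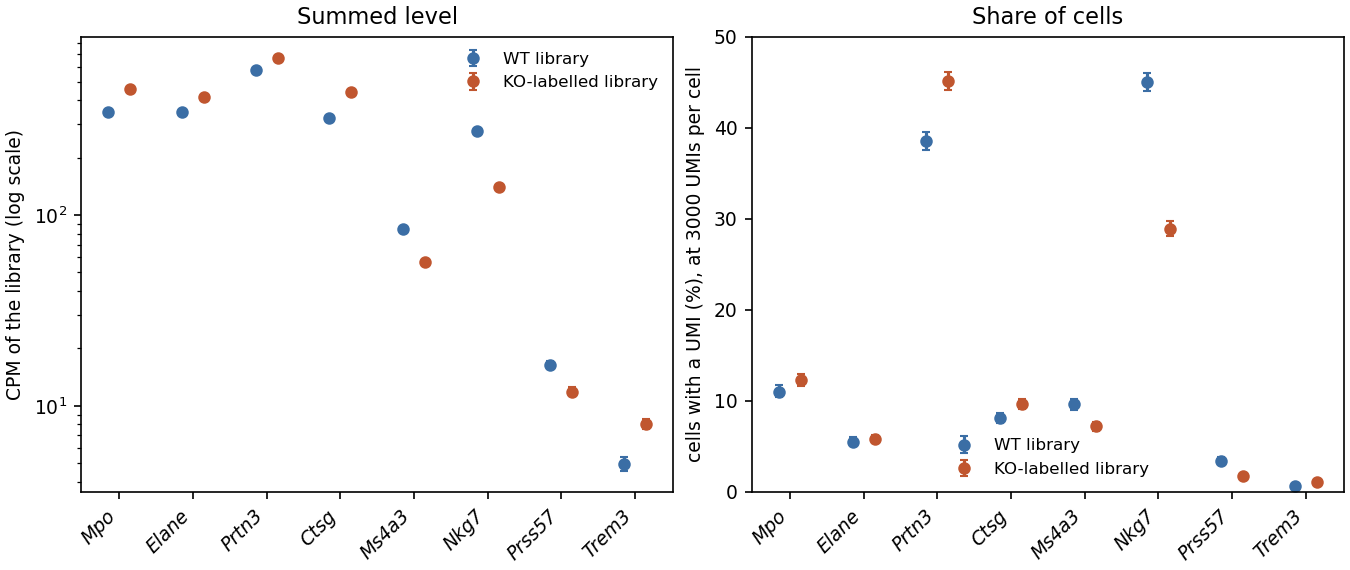
Left, summed level of each gene in CPM on a log axis, and right, the percent of cells with at least 1 UMI of it after each cell was thinned to 3000 UMIs, with points for the WT library (blue) and the KO-labelled library (orange) and bars for exact 95% counting intervals. Nkg7 was detected in 45% of WT cells although 3 cargo genes with higher summed levels were detected in 5.50% to 11%.

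Level and breadth of expression did not go together, as the plot of levels beside shares shows. To compare shares, each cell was thinned to 3000 UMIs, which left 9317 WT and 10678 KO-labelled cells. Nkg7 was detected in 45% of the WT and 28.9% of the KO-labelled cells, and Prtn3 in 38.5% and 45.1%. Mpo was detected in 11% and 12.3%, Ctsg in 8.11% and 9.66% and Elane in 5.50% and 5.81%. Without thinning the shares were higher, 69.8% and 54.3% for Nkg7, 66.0% and 71.7% for Prtn3, and 11.1% and 11.7% for Elane. Elane reached its summed level through large amounts in few cells. A cell with an Elane UMI held on average 37.4 Elane UMIs in the WT library and 39.6 in the KO-labelled library, the highest such mean of the 8 genes. The corresponding mean for Nkg7 was 4.68 and 2.88 UMIs. The 1% of cells richest in Elane held 64.2% of Elane UMIs in the WT library and 71.7% in the KO-labelled library. The 1% of cells richest in Nkg7, taken separately, held 8.31% and 15.0% of Nkg7 UMIs. Ms4a3 was found in 9.60% and 7.20% of thinned cells, Prss57 in 3.42% and 1.73%, and Trem3 in 0.633% and 1.11%.

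Cells were then clustered with the 8 genes left out, and with any gene 1.5-fold or further apart between the libraries left out too. This gave 16 clusters, and in 12 of them both libraries had at least 50 cells. The cluster that carried most of the cargo transcripts was named GMP-like, for granulocyte-monocyte progenitors, from Cebpe, Clec12a and Igsf6 among its leading genes. Its 2 leading genes were S100a9 and S100a8, with Lcn2 also among the top 10, so it also held cells with later neutrophil genes. It had 412 WT cells (4.35%) and 573 KO-labelled cells (5.32%), with median depths of 16310 and 15890 UMIs. These cells held 92.0% of all Elane UMIs in the WT library and 97.2% in the KO-labelled library, 91.8% and 89.5% of Trem3, 85.6% and 91.7% of Mpo, and 81.8% and 89.5% of Ctsg. They held 66.7% and 67.1% of Prtn3, 65.2% and 78.0% of Prss57, and 63.1% and 70.4% of Ms4a3. The exception was Nkg7, with 13.3% and 19.7% of its UMIs there. Clusters that the marker lists did not name, with 4528 WT and 6135 KO-labelled cells in all, held 53.5% and 57.7% of Nkg7 UMIs. The name of the set thus held for 7 members by where most of their transcripts were, and Nkg7 went against it.

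**Figure D2:**
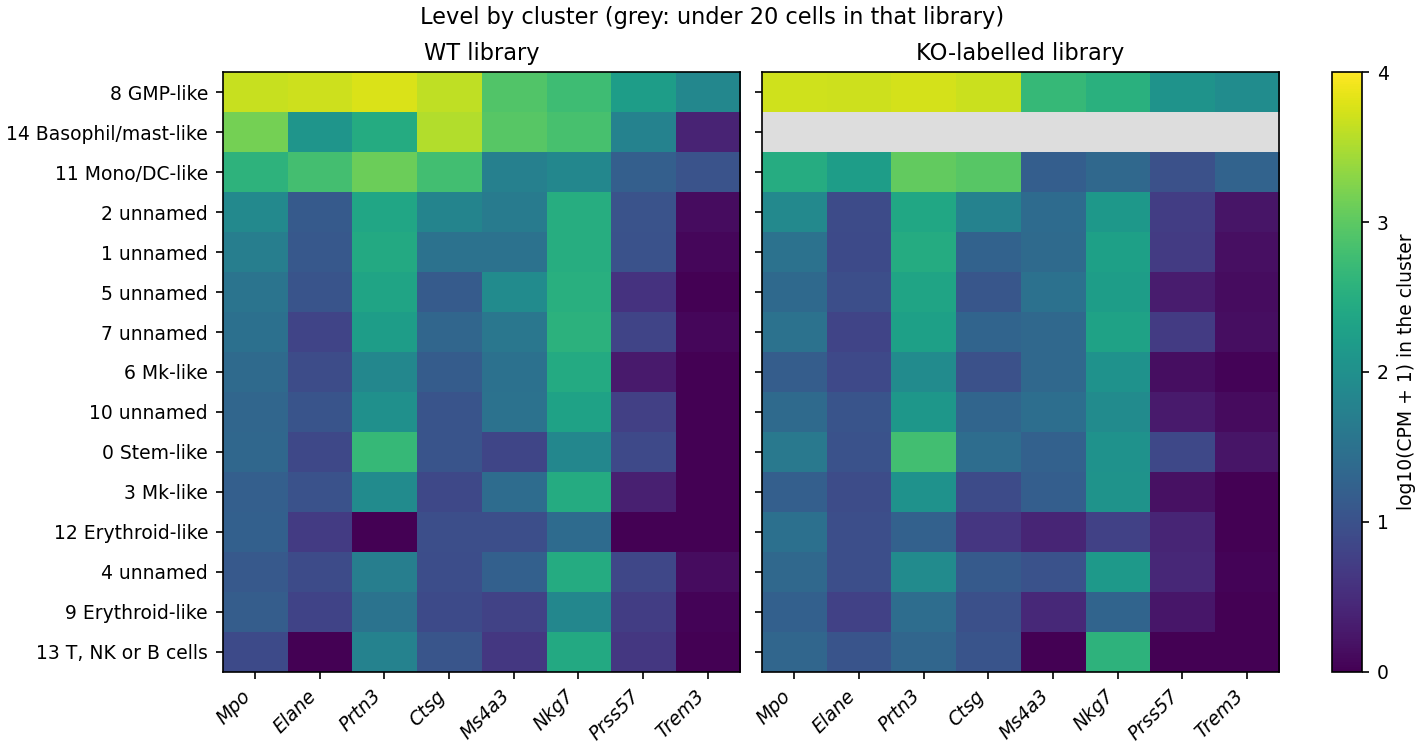
Level of each gene in each cluster of the WT library (left) and the KO-labelled library (right), as log10(CPM + 1) by colour, with clusters ordered by level and grey where a library had under 20 cells. The 4 abundant cargo genes are brightest in the GMP-like row of both libraries, Nkg7 is at a similar colour in most rows, and Prtn3 also stands out in the stem-like row.

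In GMP-like cells the 4 abundant cargo genes each stood above 4000 CPM and were close between the libraries. Prtn3 stood at 5986 CPM in WT and 5438 CPM in KO-labelled cells (ratio 0.908, 0.897 to 0.920), and Elane at 4960 and 4949 CPM (0.998, 0.984 to 1.01). Mpo stood at 4590 and 5092 CPM (1.11, 1.09 to 1.12) and Ctsg at 4098 and 4808 CPM (1.17, 1.16 to 1.19). The higher library-wide levels of Elane and Prtn3 in the KO-labelled library therefore were not seen within these cells, where Prtn3 was lower and the interval of the Elane ratio included 1. For Elane this depended on the clustering, with ratios of 1.08 (1.07 to 1.10) at a Leiden resolution of 0.5 and 1.04 (1.02 to 1.05) with all variable genes, while Prtn3 stayed below 1 in both, at 0.982 and 0.938. Trem3 stood at 70.6 and 87.5 CPM (1.24, 1.11 to 1.39), while outside the GMP-like and monocyte or dendritic-like cells it reached at most 0.367 and 0.680 CPM in the other 10 clusters with enough cells.

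Ms4a3, Nkg7 and Prss57 were lower in the KO-labelled GMP-like cells. Ms4a3 stood at 830 CPM in WT and 484 CPM in KO-labelled cells (0.583, 0.562 to 0.606), Nkg7 at 569 and 339 CPM (0.595, 0.568 to 0.623) and Prss57 at 166 and 113 CPM (0.679, 0.626 to 0.738). Thus 2 members passed 1.5-fold lower and 0 passed 1.5-fold higher, beside 2.03% and 2.18% of 5359 genes in these cells. Later granule genes and F13a1, a monocyte gene, moved the other way in the same cells, counted in the 408 and 569 of them that reached 3000 UMIs. S100a8 stood at 431 and 2485 CPM, S100a9 at 469 and 2451, Camp at 196 and 1197 and F13a1 at 166 and 483 CPM. Of the Camp UMIs, 1363 of 1419 (WT) and 8534 of 11713 (KO-labelled) lay in 2 and 12 cells, which are described below. Other monocyte genes had no common size or direction of difference. Csf1r stood at 26.3 and 32 CPM and Irf8 at 311 and 331 CPM. In the 268 and 354 cells with an Elane UMI at 3000 UMIs, Ctss stood at 32.8 and 48.6 CPM and Ccr2 at 51 and 28.6 CPM. The make-up of the GMP-like cells thus differed between the libraries, and its part in these ratios was not tested. The shares of cells were lower for the same 3 members. Ms4a3 was found in 62% of thinned WT and 35.0% of KO-labelled GMP-like cells, Nkg7 in 66.4% and 38.8%, and Prss57 in 32.4% and 17.8%. Mpo (91.7% and 93.0%), Prtn3 (94.6% and 96.1%) and Ctsg (91.7% and 94.6%) were found in nearly all of them, and Elane in 65.7% and 62.2%.

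Counts per GMP-like cell varied widely. The median cell held 33 Elane UMIs in the WT library and 13 in the KO-labelled library, with 26.5% and 24.6% of cells at 0 and highest values of 514 and 671. For Mpo the medians were 65 and 78 UMIs, for Prtn3 85 and 67, and for Ctsg 55 and 68, with under 6% of cells at 0 for each of these 3 genes. The median cell held 9 and 1 Ms4a3 UMIs and 7 and 1 Nkg7 UMIs. Cells with no Ms4a3 UMI made up 24.5% of WT and 47.1% of KO-labelled GMP-like cells, and cells with no Nkg7 UMI 9.95% and 36.5%. The summed Elane level was thus close while the median cell was lower and the upper tail longer in the KO-labelled library.

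Elane separated the GMP-like cells into groups that differed in the other members. Cells without an Elane UMI at 3000 UMIs and without later granule genes (under 10 UMIs of Camp, Ngp, Ltf and Lcn2 together) were 138 (33.8%) in the WT library and 203 (35.7%) in the KO-labelled library. In them Mpo stood at 1190 and 2100 CPM, Ctsg at 1216 and 2119 CPM, and Prtn3 at 1522 and 1925 CPM. In the 268 and 354 cells with an Elane UMI, Mpo stood at 5736 and 6335 CPM, Ctsg at 5071 and 5931 CPM, and Prtn3 at 7491 and 6883 CPM. Mpo, Ctsg and Prtn3 were thus already abundant where Elane was not detected, and higher where it was. Flt3, a receptor of early multipotent and lymphoid-primed progenitors, stood at 88.6 and 54.0 CPM in the cells without Elane and 7.18 and 9.44 CPM in those with it. Cd34, another early marker, stood at 345 and 369 CPM against 154 and 162 CPM. Cebpe, a factor of granulocyte maturation, stood at 8.36 and 21.9 CPM in the cells without Elane and 114 and 110 CPM in those with it.

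Among the cells without an Elane UMI at 3000 UMIs a few carried later granule genes, 2 in the WT library and 12 in the KO-labelled library. In the 12 cells Camp, the cathelicidin gene of specific granules, stood at 58411 CPM. The cargo genes were low there, Prtn3 at 164 CPM (105 to 244), Elane at 82.1 CPM (42.4 to 143), Mpo at 41.1 CPM (15.1 to 89.4) and Ctsg at 13.7 CPM (1.66 to 49.4). Later granule genes were also found in the cells with Elane, and at higher levels in the KO-labelled library. In those cells S100a8 stood at 202 and 1794 CPM, S100a9 at 41.2 and 1270 CPM and Camp at 10.1 and 455 CPM. In the 12 cells Trem3 was an exception, at 342 CPM (254 to 451), above its 110 CPM (102 to 118) in the cells with Elane. In the 2 WT cells Trem3 had 6 UMIs, or 287 CPM, while Mpo, Elane and Ctsg had 0, which allows up to about 176 CPM by the exact interval. The split by later granule genes was chosen with the values in view.

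Prtn3 was the one cargo gene that was also common in the stem-like cells. These cells, 1334 in the WT and 1757 in the KO-labelled library, were led by Procr and Ly6a and had median depths of 5905 and 6449 UMIs. Prtn3 stood at 479 CPM and 615 CPM in them and was found in 70.1% and 80.0% of thinned cells. In erythroid-like cells, which should lack it, it stood at 32.1 and 25.7 CPM and was found in 7.83% and 5.84%, at median depths of 22546 and 24932 UMIs. In Mk-like cells, of the megakaryocyte lineage, it was found in 19.3% and 23.0%, at median depths of 10832 and 12786 UMIs. The stem-like cells held 75.4 Prtn3 UMIs per Elane UMI in the WT library (57.4 to 101) and 67.0 in the KO-labelled library (55.4 to 81.8). The same ratio was 1.21 and 1.10 in GMP-like cells, 9.06 and 13.6 in Mk-like cells, and 6.08 and 5.02 in erythroid-like cells. It exceeded that of GMP-like cells beyond counting error in these 3 other classes, erythroid-like cells included. The ratio therefore does not tell expression from free RNA, whose part was not tested.

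The other cargo genes were scarce in stem-like cells. Prss57 stood at 6.60 and 6.29 CPM there, above its 1.06 and 0.472 CPM in Mk-like cells and its 4.21 and 0.775 CPM in erythroid-like cells. It was found in 1.70% and 1.78% of stem-like cells, beside 0.507% and 0.0718% of Mk-like and 1.57% and 0.201% of erythroid-like cells. Elane was found in 1.86% and 2.07% of stem-like cells, beside 2.12% and 1.87% of Mk-like and 0.783% and 1.21% of erythroid-like cells. Its share was close to that of Mk-like cells, and expression was not told apart from free RNA. Mpo was found in 5.57% and 8.29% of stem-like cells, beside 4.88% and 4.38% of Mk-like and 4.70% and 5.03% of erythroid-like cells. Ctsg was found in 2.09% and 5.01%, beside 1.80% and 2.44% of Mk-like and 2.35% and 1.21% of erythroid-like cells. For both genes the share in KO-labelled stem-like cells was above that in KO-labelled Mk-like and erythroid-like cells. Median depths before thinning differed, at 6449 UMIs in the stem-like against 12786 and 24932 UMIs. The part of depth and free RNA in these shares was not tested. Between the libraries, stem-like cells had 39.9 CPM (KO-labelled) against 20.3 CPM (WT) of Mpo (ratio 1.96, 1.64 to 2.36). For Ctsg the values were 25.5 against 9.78 CPM (2.61, 2.03 to 3.38). Both directions turned in the shared stem-like cluster when the clusters were made from all variable genes except the members. That clustering split the stem-like cells mostly by library, and its shared stem-like cluster had 2209 WT and 88 KO-labelled cells. There the ratio was 0.911 (0.517 to 1.49) for Mpo, from 16 KO-labelled UMIs, and 0.321 (0.0658 to 0.948) for Ctsg, from 3. Most KO-labelled stem-like cells, 1708, lay in another stem-like cluster, with Mpo at 41.3 and Ctsg at 29.3 CPM. Those values lie above the 29.6 and 15.8 CPM of the 2209 WT cells. They lie below the 108 and 51.6 CPM of the 32 WT cells in the same cluster.

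Nkg7 was broad, and lower in the KO-labelled library in 11 of the 12 clusters compared, each time by at least 1.5-fold. The plot of ratios by cluster shows the exception, the stem-like cells. There Nkg7 stood at 69.3 CPM in the WT and 108 CPM in the KO-labelled library (1.55, 1.41 to 1.72) and was found in 14.6% and 24.9% of thinned cells. In Mk-like cells it stood at 283 CPM and 111 CPM and was found in 50.6% and 25.3%, and in erythroid-like cells at 69.9 and 17.8 CPM and in 19.4% and 6.64%. Its share thus differed between classes in the WT library, and the part of free RNA in its counts was not tested. In the T, NK or B cell cluster, where Nkg7 is a known effector gene, it stood at 270 CPM in 72 WT cells and 379 CPM in 29 KO-labelled cells, too few for the ratio by cluster. With clusters made at a Leiden resolution of 0.5 it was lower in 8 of 9 clusters, the stem-like cells again differing (1.49). With all variable genes except the members, only 8 of 20 clusters had at least 50 cells in each library. Nkg7 was lower in all 8, and in the shared stem-like cluster with 88 KO-labelled cells the ratio was 0.429 (0.301 to 0.592). Clusters made up mostly of 1 library were not compared, among them an Mk-like one with 1857 and a stem-like one with 1708 KO-labelled cells.

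**Figure D3:**
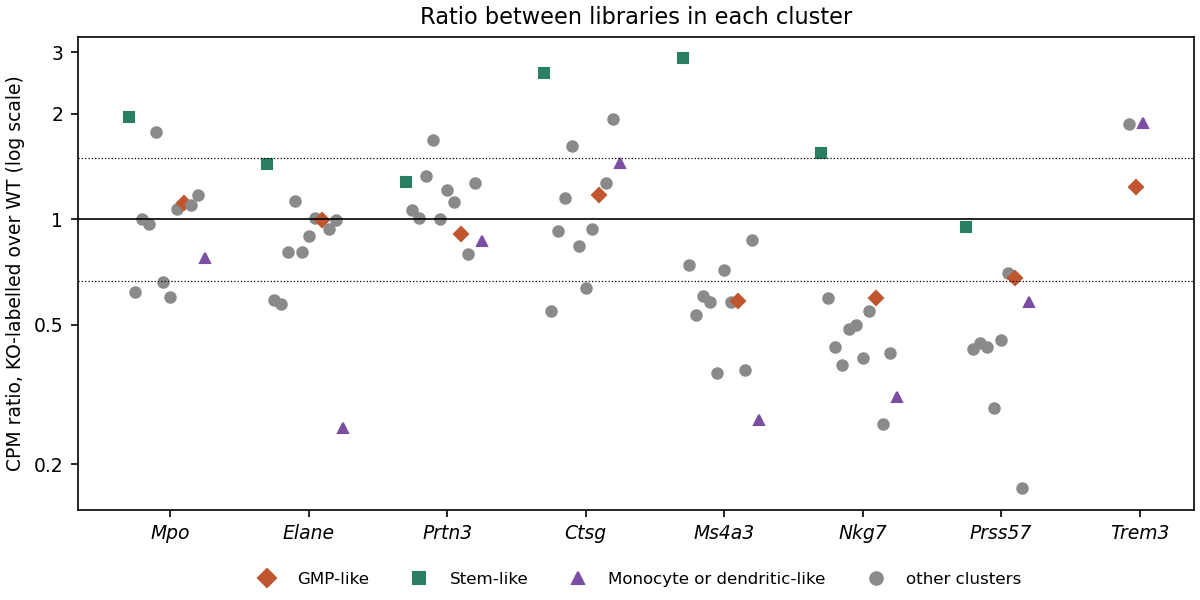
CPM ratio, KO-labelled over WT library, of each gene in the 12 clusters compared, on a log axis, with dotted lines at 1.5-fold either way. Each point is a cluster with over 3 UMIs of the gene in both libraries, so some Trem3 and Prss57 points are left out. All Nkg7 points but the stem-like square (1.55) lie under the lower dotted line. For Ms4a3 the stem-like square (2.88) alone lies above 1, and 8 points lie under that line. The GMP-like diamonds of Mpo, Elane, Prtn3 and Ctsg lie near 1.

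Ms4a3 showed the same split between the stem-like cells and the rest. It was lower in the KO-labelled library in 11 of 12 clusters, by at least 1.5-fold in 8 of them, and higher in the stem-like cells, at 16.6 against 5.75 CPM (2.88, 2.09 to 4.05). With all variable genes except the members it was lower in 7 of 8 clusters, and in the shared stem-like cluster its ratio was 1.06 (0.384 to 2.36). In the other stem-like cluster Ms4a3 stood at 18.2 CPM in 1708 KO-labelled cells and 20.6 CPM in 32 WT cells. The 2209 WT cells of the shared cluster had 9.56 CPM of it. It was found in 1.39% of WT stem-like cells, under the 1.57% of WT erythroid-like cells, and in 4.60% of KO-labelled stem-like cells, against 0.402% of KO-labelled erythroid-like cells. In Mk-like cells Ms4a3 was found in 7.19% and 5.03%, above the stem-like cells of the same library each time. Prss57 was lower in 12 of 12 clusters, with an interval below 1 in 7 of them, and with all variable genes it was lower in 7 of 8, the other having 0 KO-labelled UMIs in 50 cells. In the stem-like cells its ratio was 0.952 (0.662 to 1.38). The cargo genes showed no common direction by cluster, with ratios from 0.6 to 1.96 for Mpo (higher in 7 clusters), 0.254 to 1.44 for Elane (higher in 3), 0.798 to 1.68 for Prtn3 (higher in 8) and 0.548 to 2.61 for Ctsg (higher in 7). Of 6082 genes in the stem-like cells, 3.50% passed 1.5-fold in the higher direction and 5.20% in the lower. There Mpo, Ctsg, Ms4a3 and Nkg7 passed 1.5-fold higher, Ms4a3 from under 20 CPM. None of the 4 passed it in the shared stem-like cluster made with all variable genes, and Nkg7 missed it at a Leiden resolution of 0.5 (1.49).

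Monocyte or dendritic-like cells, 322 and 357 in number, carried the cargo genes in other proportions. Elane stood at 647 CPM among WT and 165 CPM among KO-labelled cells (0.254, 0.232 to 0.278), the lowest Elane ratio of the 12 clusters. Ctsg went the other way, at 621 and 903 CPM (1.45, 1.38 to 1.54), while Prtn3 stood at 1272 and 1102 CPM (0.867, 0.830 to 0.905) and Mpo at 390 and 302 CPM (0.773, 0.713 to 0.838). With clusters made from all variable genes these cells numbered 306 and 341, and several values moved. Elane then stood at 304 and 165 CPM (0.544, 0.490 to 0.604), Ctsg had a ratio of 2.40 (2.24 to 2.58), and Prtn3 (1.38, 1.31 to 1.46) and Mpo (1.93, 1.72 to 2.16) turned to higher. In the first clustering Prtn3 was found in 43.2% and 54.6% of these cells and Elane in 20.2% and 15.4%. The basophil or mast-like cluster, led by Prss34 and Mcpt8, had 92 cells in the WT library and 0 in the KO-labelled library. In it Ctsg stood at 3512 CPM, Mpo at 1462, Ms4a3 at 914 and Nkg7 at 675 CPM, while Elane stood at 121 CPM. It held 29.1 Ctsg UMIs per Elane UMI (23.2 to 36.8), against 0.826 (0.813 to 0.839) in the GMP-like cells of the same library. Without that cluster the library-wide ratio of Ms4a3 was 0.707 and that of Nkg7 0.519.

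The order in which the genes appear was read from cells in which a pair was detected together, at 3000 UMIs per cell. One gene was placed before another where the share of the second gene's cells that had the first exceeded the reverse share. Detection follows abundance, so this order describes nested detection and not time. In the WT library the order was Nkg7, Prtn3, Mpo, Ms4a3, Ctsg, Elane, Prss57 and Trem3. In the KO-labelled library it was Prtn3, Nkg7, Mpo, Ctsg, Ms4a3, Elane, Prss57 and Trem3. Of 28 pairs, 26 had the same order in both libraries, and the exceptions were Prtn3 with Nkg7 and Ctsg with Ms4a3. Both orders equal the order of the shares of positive cells, which the rule makes unavoidable because the 2 shares of a pair have the same numerator. They differ from the order of summed levels, in which only Prtn3 stood above Elane in the WT library, while Prtn3, Mpo and Ctsg did in the KO-labelled library.

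The nesting itself was strong for some pairs and weak for others. Of 512 WT cells with Elane, 392 (76.6%) had Prtn3, 343 (67.0%) Ctsg and 325 (63.5%) Mpo, and of 620 KO-labelled cells with Elane 76.5%, 65.2% and 65.2% had them. In the reverse direction 10.9% of WT and 9.84% of KO-labelled Prtn3 cells had Elane, and 31.7% and 30.9% of Mpo cells did. Of 1026 WT cells with Mpo 513 had Ctsg, and of 1309 KO-labelled cells 660 did, while 67.9% and 64.0% of Ctsg cells had Mpo. Trem3 came last, and 96.6% of 59 WT and 94.1% of 119 KO-labelled Trem3 cells had Prtn3. In GMP-like cells, which held most Trem3 UMIs, Prtn3 was found in 94.6% and 96.1%, so this overlap was near that share. Elane was found in 96.6% of the WT and 72.3% of the KO-labelled Trem3 cells. Nkg7 did not nest with Prtn3. It was found in 43.4% of WT Prtn3 cells, beside 45% of all WT cells, and in 30.9% of KO-labelled Prtn3 cells, beside 28.9% of all KO-labelled cells.

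**Figure D4:**
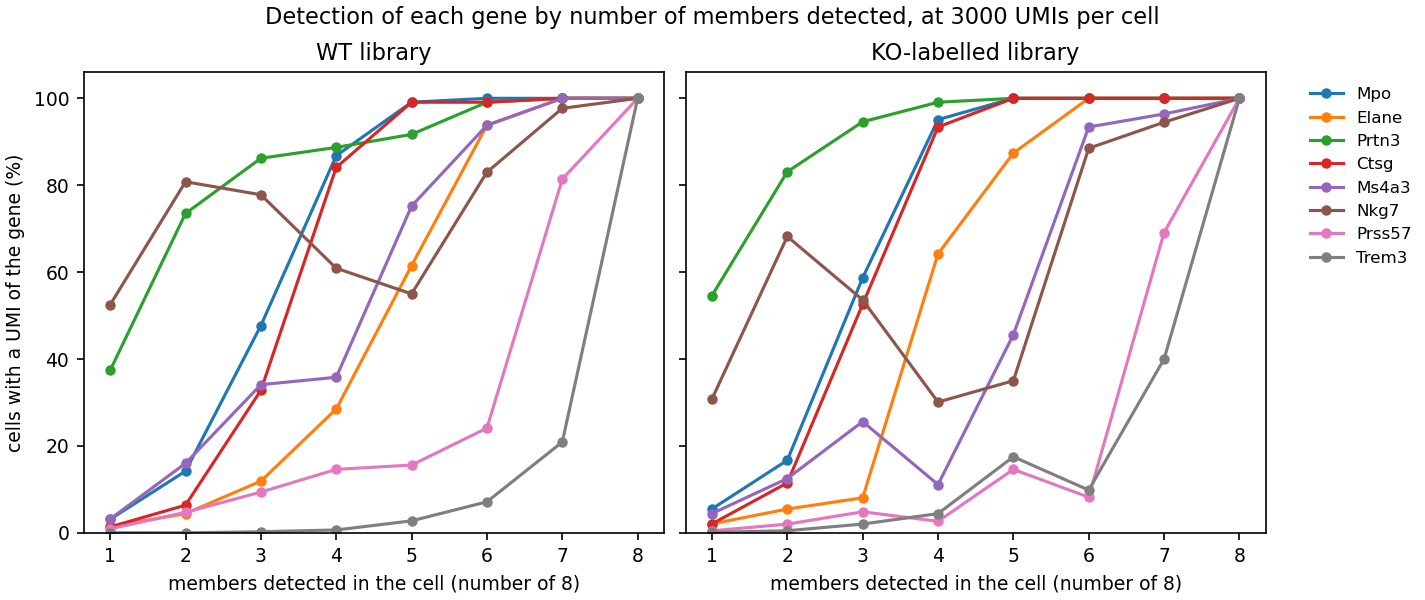
Percent of cells with a UMI of each gene (y axis) against the number of the 8 genes detected in the cell at 3000 UMIs (x axis), for the WT library (left) and the KO-labelled library (right). Prtn3 and Nkg7 are the genes of cells with 1 or 2 members, Mpo and Ctsg join at 3 and 4, and Elane stands at 28.5% (WT) and 64.2% (KO-labelled) at 4.

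The plot against the number of members detected shows the genes joining in steps, in an order that differed in part from the nested one. No member was detected in 28.2% of cells in the WT and 33.5% in the KO-labelled library, and exactly 1 in 44.1% and 40.0%. In the cells with 1 member it was Nkg7 in 52.5% of the WT and 30.8% of the KO-labelled cells, and Prtn3 in 37.4% and 54.6%. Mpo was present in 47.7% and 58.7% of cells with 3 members and 86.8% and 95.1% of cells with 4, and Ctsg in 84.1% and 93.4% of the latter. In the WT cells with 4 members Ctsg was thus more frequent than Nkg7 (60.9%) and Ms4a3 (35.8%), which precede it in the nested order. At 4 members Elane was present in 28.5% (WT) and 64.2% (KO-labelled) of cells, and at 6 in 93.8% and 100%. In the KO-labelled cells with 4 members Elane was more frequent than Nkg7 (30.1%) and Ms4a3 (11.1%), which precede it in the nested order. All 8 members were found in 27 WT and 40 KO-labelled cells, and 100% of those were GMP-like. Ms4a3 was present in 35.8% (WT) and 11.1% (KO-labelled) of cells at 4 members, but in 93.8% and 93.4% at 6. The count is made from the same 8 genes, so each gene must rise with it and a scarcer gene tends to join at higher counts. The cells differed as well, with 43.7% (WT) and 68.6% (KO-labelled) of those with 4 members being GMP-like. These steps therefore describe detection and not time. Median depth before thinning was 9193 and 8752 UMIs in cells with 1 member and 18720 and 18701 UMIs in cells with 8. Depth thus moved with the number of members, and its part beyond the thinning was not tested.

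Where Prtn3 and Nkg7 were found apart, they marked different cells. Among stem-like cells 60.0% in the WT and 59.6% in the KO-labelled library had Prtn3 without Nkg7, and 4.49% and 4.55% had Nkg7 without Prtn3. In Mk-like cells the order was reversed in the WT library, with Prtn3 alone in 9.08% and Nkg7 alone in 40.3%. In KO-labelled Mk-like cells the values were 16.2% and 18.5%. In GMP-like cells both were found in 64.0% of the WT cells and 37.6% of the KO-labelled cells, and Prtn3 alone in 30.6% and 58.5%.

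Procr encodes the endothelial protein C receptor and marks the most primitive haematopoietic cells. At least 1 Procr UMI was found in 938 WT and 788 KO-labelled cells. All 8 members had a lower CPM in those cells than in the rest of their library, in both libraries, beside 54.0% of 6217 genes in the WT and 51.2% of 6001 genes in the KO-labelled library. Elane stood at 113 against 370 CPM in the WT library (with over without Procr 0.306) and 47.7 against 444 CPM in the KO-labelled library (0.107). With at least 2 Procr UMIs all 8 members were again lower, but the Elane ratio was 0.0172 in the WT and 0.245 in the KO-labelled library, which turns the library with the lower ratio. The WT ratios of Ctsg and Mpo went from 0.448 to 0.0231 and from 0.504 to 0.0627. Prtn3 differed least, at 494 against 586 CPM (0.844) and 534 against 675 CPM (0.791). By shares of thinned cells Prtn3 went the opposite way, with 65.8% of Procr cells against 35.5% of the others in the WT library and 75.4% against 42.7% in the KO-labelled library. Median depth was 7690 and 7776 UMIs in Procr cells and 10094 and 9428 in the others.

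Few of the Procr cells, 17 in the WT and 23 in the KO-labelled library, lay in the GMP-like, monocyte-like or basophil-like clusters, which dominate the CPM of the other cells. Those 17 WT cells held 94.1% of the Elane UMIs of Procr cells. Outside these clusters 3 members in the WT and 4 in the KO-labelled library had a lower CPM with Procr, beside 54.8% and 51.8% of genes. There Prtn3 stood at 365 CPM with and 149 CPM without Procr in the WT library, and at 466 and 189 CPM in the KO-labelled library. The ratio was 2.46 in each. It was found in 65.4% against 32.1% of cells and in 75% against 39.0%. Prss57 was higher with Procr as well, at 8.45 against 5.13 CPM (1.65) and 6.80 against 2.31 CPM (2.95), although at low levels. Trem3 had 0 and 3 UMIs in the Procr cells there and was not counted as lower. Nkg7 was lower with Procr, at 157 against 269 CPM (0.587) and 103 against 129 CPM (0.801). Mpo had ratios of 1.27 and 1.02, Ctsg 1.54 and 0.954, Ms4a3 0.501 and 0.682, and Elane, at 6.91 and 4.80 CPM with Procr, 0.780 and 0.641.

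**Figure D5:**
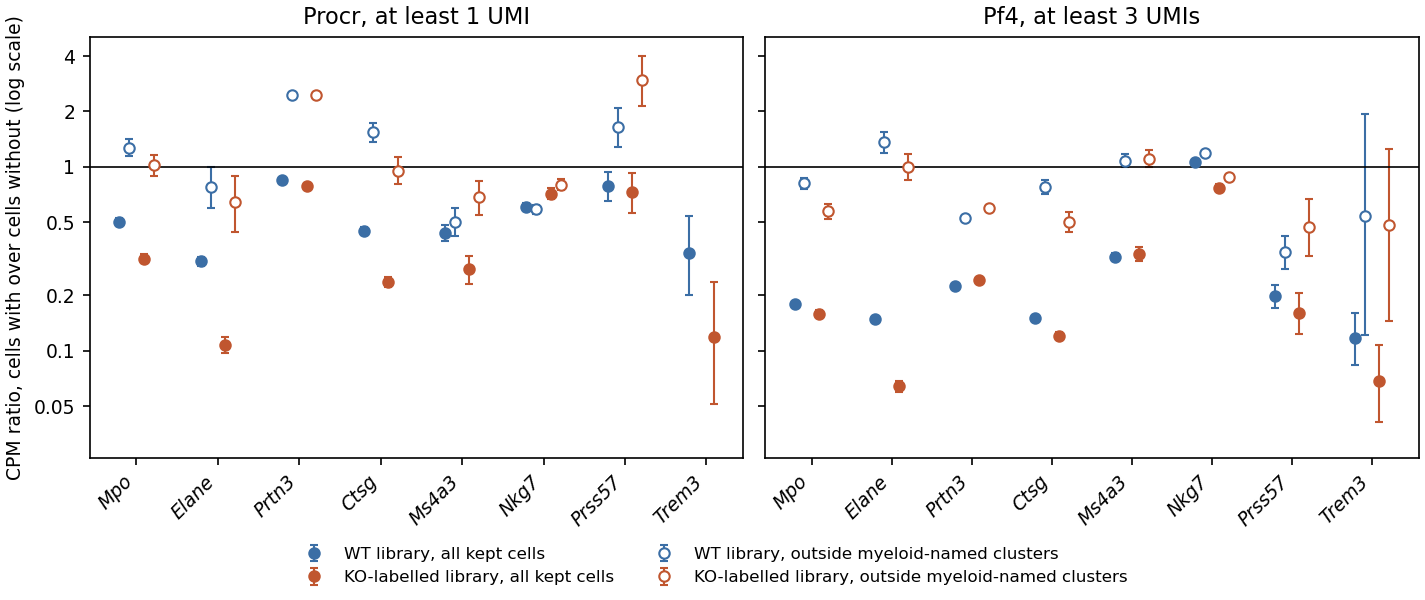
CPM ratio of each gene on a log axis, cells with over cells without at least 1 Procr UMI (left) or at least 3 Pf4 UMIs (right), with filled points for all kept cells, open points for cells outside the myeloid-named clusters, blue for the WT library and orange for the KO-labelled library, and bars for exact 95% counting intervals. Prtn3 crosses from below 1 to 2.46 in the Procr panel when the myeloid-named clusters are left out, and the filled Nkg7 points of the Pf4 panel lie nearest to 1.

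Pf4 encodes platelet factor 4 and marks cells primed toward megakaryocytes. At least 3 Pf4 UMIs were found in 3178 WT and 2042 KO-labelled cells. In the WT library 7 members and in the KO-labelled library 8 had a lower CPM in those cells, beside 35.2% of 6032 and 36.4% of 5842 genes. Elane stood at 80.1 against 538 CPM (with over without Pf4 0.149) and 34.1 against 531 CPM (0.0642), Mpo at 94.2 against 525 (0.179) and 89.8 against 564 CPM (0.159), and Ctsg at 75.4 against 499 (0.151) and 67.0 against 552 CPM (0.121). Prtn3 stood at 192 against 853 CPM (0.225) and 195 against 805 CPM (0.242). Nkg7 was the exception in the WT library, at 283 CPM with and 268 CPM without Pf4 (1.06, 1.03 to 1.08), while in the KO-labelled library it stood at 115 and 149 CPM (0.771, 0.742 to 0.802). With at least 10 Pf4 UMIs the Nkg7 ratio was below 1 in both libraries, at 0.967 and 0.653. Outside the myeloid-named clusters the ratios were 1.19 and 0.881 for Nkg7, 0.528 and 0.598 for Prtn3, 0.345 and 0.472 for Prss57, and 0.813 and 0.575 for Mpo. Ms4a3 had ratios of 1.08 and 1.11 there, and Elane of 1.36 and, by 7.30 against 7.31 CPM, 1.0. Of the members 5 and 7 were lower with Pf4 outside these clusters, beside 37.4% and 39.4% of genes. Median depth was 12604 and 12166 UMIs in Pf4 cells and 8638 and 8653 in the others.

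Of 20 genes of granule packaging and protease processing, all at 5 CPM or more, 7 were higher and 13 lower in the KO-labelled library, beside 34.9% higher among all genes at 20 CPM or more. The median log2 ratio was -0.10, beside -0.07 over those genes, so the list did not stand apart from them. Srgn, the serglycin gene, stood at 1054 and 1199 CPM (ratio 1.14) and Serpinb1a, an inhibitor of neutrophil serine proteases, had a ratio of 1.06. The chaperones Calr and Canx had ratios of 0.774 and 0.789 and Cd63, of granule membranes, 0.810. Only Cst7, a cathepsin inhibitor named because it alone passed 1.5-fold, was higher by that much, at 34.7 and 67.0 CPM (1.93). Of 14 genes of haem synthesis and peroxide supply, on which myeloperoxidase depends, 12 were higher and 2 lower (median log2 ratio 0.22). Cyba and Rac2 of the NADPH oxidase had ratios of 1.07 and 1.15, and the haem enzymes Alad and Urod 1.04 and 1.08. Of these 14, 2 passed 1.5-fold higher, Cpox (1.61) and Ncf4 (1.59), beside 2.96% of all genes at 5 CPM or more.

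Of 16 regulators of granulocyte genes 9 were higher and 7 lower (median log2 ratio 0.04), with 3 past 1.5-fold higher and 1 past 1.5-fold lower. The counts of this paragraph stand beside 2.96% higher and 3.85% lower by 1.5-fold among 9572 genes at 5 CPM or more. Of genes at 20 CPM or more, 34.9% were higher by any size. Spi1, which encodes PU.1, had a ratio of 1.30, Myb 0.974, Meis1 1.01 and Zeb2 0.933. Of 8 measured receptors of granulocyte and monocyte growth 7 were higher and 1 lower, with 4 at least 1.5-fold higher (median log2 ratio 0.45). They included Csf3r, the receptor of granulocyte growth factor (1.92), Csf2rb (2.39) and Fcgr3 (1.71), while Clec12a had a ratio of 1.21 and Csf2ra 0.784. The 9 measured later granule genes of 15 were all higher in the KO-labelled library, 7 of them at least 1.5-fold, with a median log2 ratio of 2.42. S100a8 had a ratio of 6.26, S100a9 5.35, Camp 6.30, Chil3 13.5 and Lyz2 1.41. For Camp, S100a9 and S100a8 much of the sum lay in the 2 WT and 12 KO-labelled GMP-like cells described above. Those cells held 1363 of 1813 (WT) and 8534 of 12094 (KO-labelled) Camp UMIs. They also held 3159 of 4575 and 15087 of 25924 S100a9 UMIs, and 2022 of 3996 and 11760 of 26468 S100a8 UMIs. Over the same libraries the log2 ratios of the abundant cargo genes lay between 0.20 and 0.45. Of 15 neighbours and relatives 5 reached 5 CPM, Treml1 (2.33), Trem2 (2.78), Ms4a2 (1.67) and the basophil protease genes Mcpt8 (0.00696) and Prss34 (0.000539). Mcpt8 and Prss34 are leading genes of the basophil or mast-like cluster, which had 0 KO-labelled cells.

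Over 27 points, each a cluster of at least 50 cells in 1 library, the genes whose log2(CPM + 1) was most like the mean of the 8 members were Clec12a (Pearson r 0.895), Alas1 (0.893), Anxa3 (0.886), Ccl9 (0.881), Fcgr3 (0.866), Lta4h (0.858), Adssl1 (0.858), Pgam1 (0.849), Hp (0.844) and Cnpy3 (0.837). The points share libraries and depth and the GMP-like cells carry much of the range, so these values describe likeness and have no test. Among the members themselves Mpo and Ctsg were most alike (0.971), followed by Elane with Trem3 (0.948) and Mpo with Elane (0.944). Nkg7 was least like the others, with r from 0.125 to 0.417 except with Ms4a3 (0.690).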

How the data were processed

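UMI counts per gene and barcode were used as deposited by the authors. Per the submitters' processing notes, Cell Ranger 2.1.1 and mm10 were used, whereas software version 3.1.0 stands in the file headers. The labels' protocols give the 3′ v2 kit and about 10000 sorted cells per library. Barcodes were kept as cells from 500 genes upward and up to 10% mitochondrially encoded UMIs. UMIs were summed over cells and scaled to CPM. Sums have exact Poisson, ratios exact conditional binomial and shares exact Clopper-Pearson intervals. Intervals cover counting error only. Where a sum was 0 in one library, 3 counts stood in for it in a ratio. No doublet caller was run.

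Clusters used counts scaled to 10000 per cell and log-transformed, 2000 variable genes without the members, ribosomal, mitochondrial and sex-linked genes and 6368 genes 1.5-fold or further apart between libraries, 30 components, 20 neighbours and Leiden resolution 0.8 (scanpy 1.11.5, leidenalg 0.10.2). They were named from marker lists without the members. Male cells had no Xist UMI and a UMI of any of 4 Y-linked genes (Uty, Kdm5d, Eif2s3y, Ddx3y). The members and gene lists were chosen with earlier results of these data known. All members were named, and of each list up to 5 genes with the largest summed CPM, of which 1 is not reported here. Cst7, Cpox, Ncf4, Flt3, Cd34, Cebpe and Cfd were named after their values were seen. Likeness used the 10 highest Pearson r among genes at 20 CPM or more.

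The steps were tested on simulated library sums of 5703 genes at 20 CPM or more, in which 100 of 100 genes changed 3-fold, 0 of 100 changed 1.2-fold and 0 unchanged genes passed 1.5-fold. Alternatives to the filters, scaling (TMM, edgeR 4.0.16), depth, thresholds and clustering were run. The alternatives with only GMP-like cells and without the basophil or mast-like cluster were chosen after seeing the data. Scripts ran in Python 3.11.15 with pandas 2.3.3, scipy 1.17.1 and numpy 2.4.6.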

Additional observations from a re-analysis of the deposited data

Results flagged for a closer look

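Nkg7 stood higher in cells with at least 3 Pf4 UMIs than in the other cells of the WT library (ratio 1.06) and lower in those of the KO-labelled library (0.771). The direction of the contrast thus differed between the libraries, and this difference was not tested, since there was 1 library per genotype. It rested on the threshold, as with at least 10 Pf4 UMIs the ratios were 0.967 and 0.653, both below 1.

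The barcodes that the cell filter left out also held Elane. In the 629 left-out barcodes of the KO-labelled library it stood at 601 CPM (560 to 644) and in the 497 of the WT library at 507 CPM (466 to 552), each above the 418 and 347 CPM of the kept cells.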

How the results depend on the processing

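No paired analysis was possible because there was 1 library per genotype. The median log2 ratio over the members (0.24) was 0.33 with TMM factors, 0.29 with a total without ribosomal and mitochondrial genes, 0.58 in male cells and 0.13 without the 1% of cells richest in the members. It turned to -0.065 without the 5% deepest cells, -0.10 with equal cluster weights, -0.16 without the myeloid-named clusters and -0.071 in GMP-like cells. Members at least 1.5-fold higher numbered 0 without the 5% deepest cells, with equal cluster weights and in GMP-like cells, and 4 in male cells. Members at least 1.5-fold lower numbered 2 with no cell filter, with the stricter filter of 1000 genes and 5% mitochondrial UMIs, without the myeloid-named clusters and in GMP-like cells. They numbered 3 without the 5% deepest cells, with equal cluster weights and without the 1% richest cells. The Elane ratio turned to 0.906 without the deepest cells, 0.911 with equal weights, 0.843 without the myeloid-named clusters, 0.987 without the richest cells and 0.998 in GMP-like cells. The Prtn3 ratio turned to 0.95 with equal weights and 0.908 in GMP-like cells, and without the myeloid-named clusters Ctsg was at 0.956 and Mpo at 0.973. The Elane ratio in GMP-like cells was 1.08 at Leiden 0.5 and 1.04 with all variable genes. Without the myeloid-named clusters the members lower with Procr numbered 3 in the WT and 4 in the KO-labelled library, with ratios above 1 for Prtn3 (2.46 in each library), Prss57 (1.65 and 2.95), Mpo (1.27 and 1.02), Ctsg (WT, 1.54) and Trem3 (KO-labelled, 1.19, from 3 UMIs, interval 0.234 to 3.8). By shares the Procr ratio was 1.85 and 1.77 for Prtn3 and 1.71 for Prss57 in the KO-labelled library. The ratio with Pf4 was 1.36 for Elane (WT) and 1.08 and 1.11 for Ms4a3 without those clusters, and 0.967 for Nkg7 (WT) with at least 10 Pf4 UMIs. The Nkg7 ratio between libraries stayed below 1 under the 11 alternatives, from 0.482 to 0.641. The causes of these moves were not tested. Trem3 and Prss57 are limited by depth, with 558 and 1843 UMIs in the WT library and 958 and 1412 in the KO-labelled library.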

Other observations

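In the barcodes left out by the filter all 8 members stood above their level in kept cells in the WT library, and 5 did in the KO-labelled library. Mpo stood at 1070 CPM (1009 to 1134) in the WT and 628 CPM (585 to 672) in the KO-labelled library, Ctsg at 781 and 663 CPM, and Prtn3 at 746 and 553 CPM. Nkg7 was again lower in the KO-labelled library, at 112 CPM (94.4 to 131) against 316 CPM (283 to 351). Unlike in kept cells, Mpo, Prtn3, Ctsg and Trem3 were lower there in the KO-labelled library, Trem3 at 6.12 CPM (2.64 to 12.1) against 10.2 CPM (5.10 to 18.3), intervals that overlap.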
